A study of Mus musculus with 576 samples.

Results

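Developing red cells load themselves with haemoglobin iron and oxygen, and they carry an unusually large stock of enzymes that destroy peroxide and superoxide. The transcripts of 10 of these enzymes were followed in cultured mouse erythroid progenitors with and without the glucocorticoid dexamethasone. They were taken by symbol from the 49466 genes of the deposited count table, and each symbol matched 1 row. The rows were matched by symbol alone and by no measured value, but the list of genes was chosen with earlier results of these data known. The superoxide dismutases Sod1 (cytosol) and Sod2 (mitochondrial matrix) turn superoxide into hydrogen peroxide. Catalase (Cat), the glutathione peroxidases Gpx1 and Gpx4 and the peroxiredoxins Prdx1, Prdx2 and Prdx3 remove peroxide. Thioredoxin (Txn1) with its NADPH-dependent reductase (Txnrd1) returns oxidised peroxiredoxin of the cytosol to its active form. Prdx2 protein is among the most abundant proteins of mature red cells, and mice without it have haemolytic anaemia.

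Cells came from the livers of C57/Bl6J mouse embryos at day 14.5 of gestation. Per the labels' protocols they were depleted of cells bearing mature lineage antigens, sorted for CD117, CD71 and CD24, and so enriched for the burst forming unit-erythroid, an early progenitor of the red cell lineage. The dexamethasone groups were then cultured with 100 nM dexamethasone for 24, 48 or 72 hours (days 1, 2 and 3), and the control groups for the same times without it. Both arms received erythropoietin at 2 U/mL together with 100 ng/mL of stem cell factor and 40 ng/mL of insulin-like growth factor 1. Each combination of day and treatment was 1 plate of 96 wells with 1 cell per well, and the labels do not say whether plates came from separate animals or cultures. All 96 index pairs that mark the wells were used on all 6 plates, which the labels tell apart by lane, so plate, lane and group coincide.

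After filtering there were 94, 92 and 94 dexamethasone cells on days 1, 2 and 3, against 94, 96 and 93 control cells. Plates held between 88178493 and 116623968 gene counts, and a kept cell had a median of 1092431. Early erythroid progenitor markers (10 genes, including Kit, Gata1 and Klf1) all had counts and summed to between 1753 and 2090 counts per 1e6 gene counts (CPM) on dexamethasone plates and between 1761 and 2004 on control plates. The 12 neutrophil and monocyte markers also had counts. Their summed level was 331, 539 and 589 CPM on dexamethasone days 1, 2 and 3, against 1361, 3.64 and 1857 CPM on the control days. At least 2 of them were found in 25, 25 and 41 dexamethasone cells and in 46, 0 and 58 control cells. Mast and basophil markers summed to 859 CPM on the dexamethasone day 2 plate and to 56.1 CPM or less on the other plates. Hepatocyte markers summed to 66.5 CPM on the dexamethasone day 2 plate and to 6.51 CPM or less on the other plates. The 10 megakaryocyte markers summed to 519, 566 and 346 CPM on dexamethasone days 1, 2 and 3, against 438, 142 and 227 CPM in control, and 6 of the 8 tested had fitted differences above 0 (median 1.64). Within the early erythroid markers the fitted dexamethasone differences went both ways, at 1.86 for Kit and 1.32 for Gata2 against -0.61 for Gata1 and -0.78 for Klf1. None of these was called by edgeR on all genes, and Gata2 was called on the genes of at least 50 CPM (adjusted p 0.0402). The part of the mast cell, hepatocyte, megakaryocyte and early erythroid genes in the results was not tested.

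The members fall into families that differ in the chemistry of their active site, and their sequences show this. Gpx1, Gpx4 and Txnrd1 are selenoproteins, in which a TGA codon inside the reading frame is read as selenocysteine. Of the 10 principal coding sequences (GENCODE vM21, GRCm38), only these 3 had an in-frame TGA before the stop, at codon 47 of 202 in Gpx1, codon 73 of 198 in Gpx4 and codon 498 of 500 in Txnrd1. The coding stretches around it are shown with the codon in capitals, because these transcripts need the selenocysteine machinery described further on.
Gpx1: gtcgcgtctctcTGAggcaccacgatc
Gpx4: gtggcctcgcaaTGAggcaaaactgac
Txnrd1: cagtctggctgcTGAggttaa
These totals count the stop codon. In Txnrd1 the recoded codon gives the last amino acid but 1, whereas in both glutathione peroxidases it lies in the first part of the protein.

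Promoters of all 10 members were found in RefSeq (GRCm38.p6, 250 bases before to 50 after the start). They were searched on both strands for 3 short motifs. The core of the antioxidant response element, TGACNNNGC, is bound by NRF2 and BACH1 with small Maf proteins. It was present in Prdx1, Sod1 and Txnrd1, and in 12.4% of all listed promoters (14% of genes with a listed promoter). The stretches are shown 5′ to 3′ on the gene's strand with the match in capitals. All 3 matches lie on the opposite strand, so they read as the reverse complement.
Prdx1, chr4:116685440-116685499, plus strand: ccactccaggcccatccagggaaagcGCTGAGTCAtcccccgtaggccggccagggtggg
Sod1, chr16:90220680-90220739, plus strand: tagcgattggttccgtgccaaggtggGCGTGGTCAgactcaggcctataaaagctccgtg
Txnrd1, chr10:82859088-82859147, plus strand: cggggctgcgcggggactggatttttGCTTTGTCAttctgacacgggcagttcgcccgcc
The matches ended 125, 48 and 84 bases before an annotated start of Prdx1, Sod1 and Txnrd1. Txnrd1 had 3 listed promoters, and the match was in 1 of them (chr10:82858956-82859255), which lies inside the annotated gene.

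The CACCC box CCCACCC is a sequence of the type that KLF1 binds in red cell genes. It was found in Prdx1, Prdx2, Cat and Gpx4, and in 17.5% of all listed promoters (19.4% of genes). Gpx4 held its match after the start, in 1 of its 4 listed promoters. The stretches of Prdx2 and of the match nearest to the start in Cat are shown, as examples of a match before the start. Members with a match ran with the late red cell score of single cells, described later, on differing numbers of plates. These were 6 of 6 for Prdx2 and Cat, 4 for Gpx4 and 1 for Prdx1. Without a match, Prdx3 ran with the score on 6 plates, Gpx1 on 5, and Sod1, Sod2, Txn1 and Txnrd1 on 3 each. A link between match and score was not tested.
Prdx2, chr8:84969498-84969557, plus strand: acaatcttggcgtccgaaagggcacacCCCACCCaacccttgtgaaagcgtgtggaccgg
Cat, chr2:103485154-103485213, minus strand: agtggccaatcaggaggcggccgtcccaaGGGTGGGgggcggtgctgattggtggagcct
Cat had 3 such matches in its 300 bases, ending 155, 91 and 25 bases before the start. The GATA motif AGATAA was in no listed promoter of the 10 members and in 11.2% of all listed promoters (12.7% of genes). A match is a run of letters in this window only, and binding was not measured.

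Prdx2 was the member with the widest range of levels. It stood at 684, 446 and 1444 CPM in dexamethasone cells on days 1, 2 and 3, against 718, 1555 and 3756 CPM in control cells. These CPM are counts summed over the cells of a plate and scaled by the TMM method. Day 1 plates were alike, the dexamethasone plates of days 2 and 3 lay below the control plates of the same day, and the 2 sets of 3 plates overlapped. The log2 ratio of dexamethasone to control was -0.07, -1.80 and -1.38 on days 1, 2 and 3. In the additive fit over all days the dexamethasone difference was -1.09 (SE 0.38) on the log2 scale, with an adjusted p of 0.448 by edgeR's quasi-likelihood test. Over all its alternatives the adjusted p ran from 0.0112 to 0.849. The lowest values came from leaving out a day 1 plate, as given below.

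Its mitochondrial relative Prdx3 moved over a narrower range. It had 581, 554 and 839 CPM in dexamethasone cells on days 1, 2 and 3, against 486, 754 and 1120.3 CPM in control cells. It was thus higher with dexamethasone on day 1 and lower on days 2 and 3, by 0.26, -0.44 and -0.42 in log2. Prdx1, the widely expressed cytosolic peroxiredoxin, took the other direction. It had 539, 381 and 431 CPM in dexamethasone cells, against 357, 313 and 428 CPM in control cells, with log2 ratios of 0.59, 0.28 and 0.01. The Prdx1 ratio was above 0 on every day, and on day 3 the Poisson intervals of both plates overlapped. Neither gene passed the test over the days (edgeR adjusted p 0.743 for Prdx3 and 0.549 for Prdx1).

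Cat, which breaks down hydrogen peroxide with a haem group and no thiol, had 433, 558 and 513 CPM in dexamethasone cells on days 1, 2 and 3. Control cells had 355, 579 and 824 CPM. The log2 ratio was 0.29, -0.06 and -0.68, so the plates differed in opposite directions on days 1 and 3. Gpx1, the glutathione-dependent peroxidase of the cytosol and mitochondria, had 656, 493 and 1371 CPM with dexamethasone and 618, 932 and 2399 CPM in control. Its log2 ratios of 0.09, -0.92 and -0.81 were the nearest to those of Prdx2 among the members, with the same order of days. Gpx4, which reduces lipid peroxides in membranes, had 131, 73.3 and 150.1 CPM with dexamethasone against 82.1, 108 and 198 CPM in control. It was higher with dexamethasone on day 1 by 0.67 in log2 and lower on days 2 and 3, by -0.56 and -0.40. None of these 3 passed the test over the days, with edgeR adjusted p of 0.844 for Cat, 0.501 for Gpx1 and 0.929 for Gpx4.

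Both superoxide dismutases differed little between the arms. Sod1 had 683, 772 and 771 CPM in dexamethasone cells, against 614, 539.9 and 845 CPM in control cells, and its largest daily log2 ratio was 0.52 on day 2. Sod2 had 372, 293 and 233 CPM in dexamethasone cells, against 383, 271 and 227 CPM in control cells. The Sod2 ratios stayed between -0.04 and 0.11 in log2, the narrowest span of the 10 members. The fitted Sod2 difference was 0.04 (SE 0.10). Its sign was the other one without the cells carrying neutrophil or monocyte markers, at -0.078.

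Txn1 was the only member whose 2 sets of plates did not overlap. It had 214, 240.5 and 216 CPM in dexamethasone cells on days 1, 2 and 3, against 160.4, 160.1 and 207 CPM in control cells. All 3 dexamethasone plates were above all 3 control plates in 7.29% of the genes tested. The lowest dexamethasone plate and the highest control plate were close, and on day 3 the log2 ratio was 0.06 after 0.41 and 0.59 on days 1 and 2. Its fitted difference of 0.35 (SE 0.15) had an edgeR adjusted p of 0.489. Txnrd1 had 256, 177 and 143 CPM in dexamethasone cells and 289.7, 202 and 133 CPM in control cells. The fitted difference was -0.09 (SE 0.12), within its error. Without the cells carrying neutrophil or monocyte markers the Txnrd1 difference was -0.32 (SE 0.11), at an unadjusted p of 0.0389 and an edgeR adjusted p of 0.418. The members other than Sod2 kept the sign of their fitted difference without these cells.

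**Figure D1:**
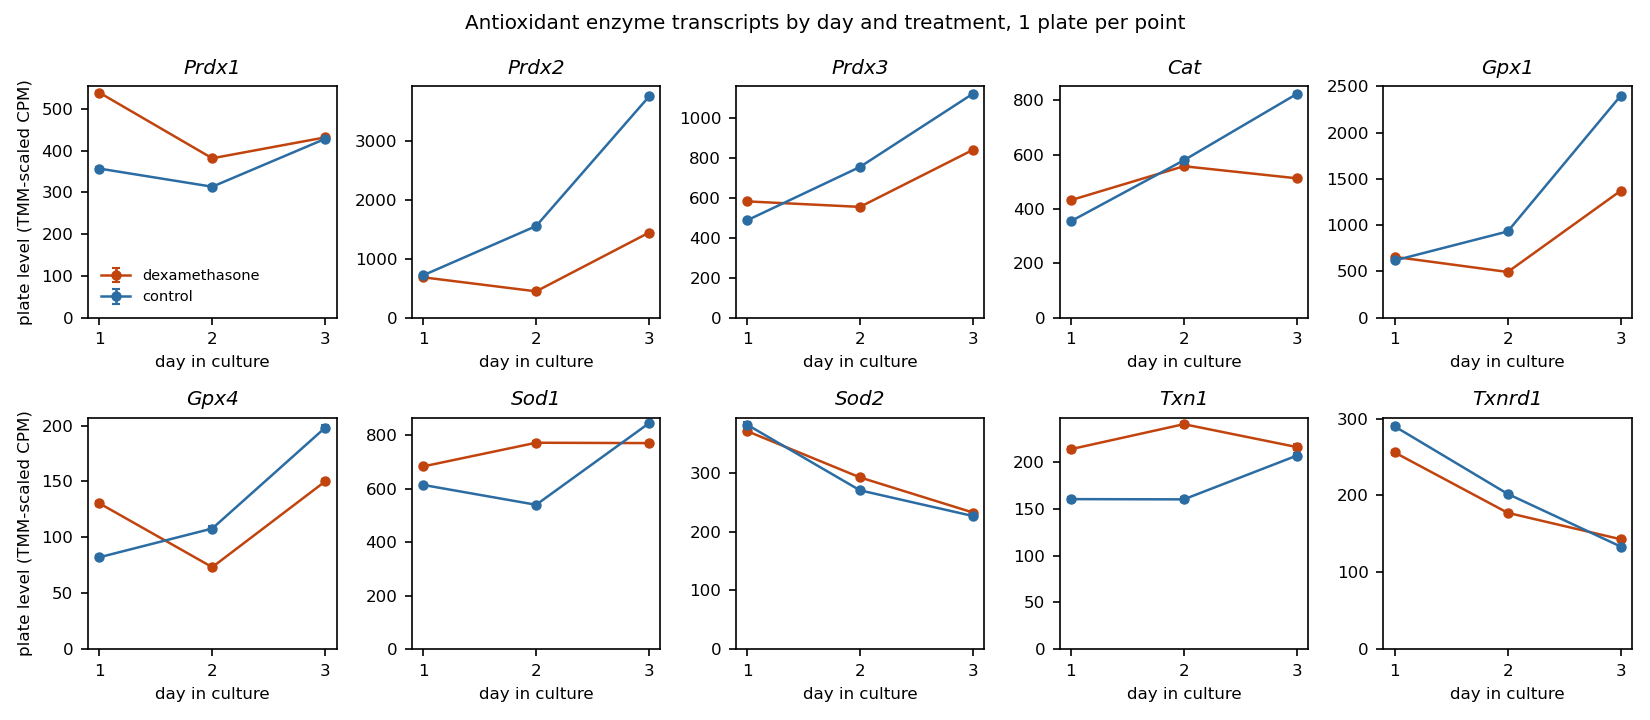
Plate levels of the 10 transcripts in TMM-scaled CPM (y axis, from 0) by day in culture (x axis), 1 plate per point; orange is dexamethasone and blue is control, and bars, mostly hidden by the points, are exact Poisson intervals at 95% confidence. Prdx2 and Gpx1 reach 3756 and 2399 CPM in control on day 3, while Sod2 and Txnrd1 go down over the days in both arms.

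By sign, 1 of the 10 members (Prdx2) was lower with dexamethasone on all 3 days, 2 (Prdx1 and Txn1) were higher on all 3, and 7 were mixed. Lower on all 3 days were 16.7% of all genes tested and higher on all 3 were 20.2%, so these counts are near what the whole transcriptome shows. On day 1, 7 members were higher with dexamethasone, and on days 2 and 3 there were 4. Among all genes 50.9%, 52.6% and 52% were higher with dexamethasone on days 1, 2 and 3. The median daily log2 ratio of all genes was 0.0023, 0.05 and 0.04. Among genes of at least 50 CPM, which are nearer to the members in level, 43.9%, 42.9% and 44.3% were higher, with medians of -0.053, -0.086 and -0.071.

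**Figure D2:**
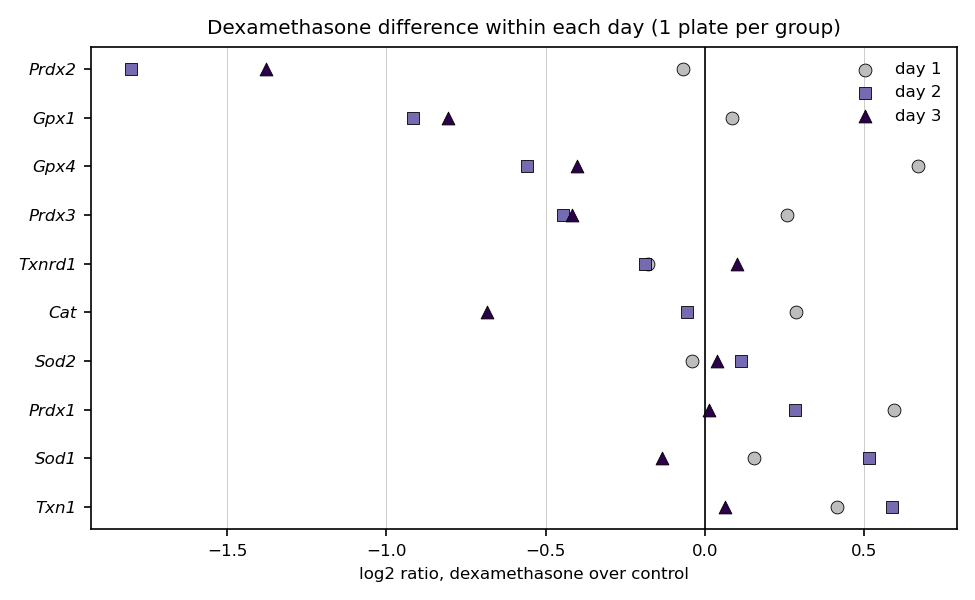
Log2 ratio of dexamethasone to control (x axis) within each day for each member (rows), with circles for day 1, squares for day 2 and triangles for day 3, and 1 plate per group. Prdx2 lies at -1.80 and -1.38 on days 2 and 3, and Gpx4, Prdx3 and Cat change sign between day 1 and day 3.

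The test of dexamethasone over the 3 days called no member. With 1 plate for each day and treatment the fit had 2 residual degrees of freedom, and it called 0 of 18158 genes (0% called) at an adjusted p of 0.05. At an unadjusted p under 0.05 it had 1971 genes (10.9%), and Prdx2 was the only 1 of the 10 members among them. On the 4326 genes that averaged 50 CPM or more, edgeR had 38 calls (0.878%), and DESeq2 called 1211 of 18158 (6.67%), again with no member. All 10 members were above 50 CPM on every plate, so none passed this filter through 1 arm alone. The median fitted log2 difference was -0.10 over the members and 0.07 over all genes tested. In the fit on the genes of at least 50 CPM it was -0.028 over the members and 0.0015 over all genes.

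The calls for dexamethasone depended on the day 1 plates. Without either of them the comparison rests on days 2 and 3, and edgeR on the genes of at least 50 CPM then called Prdx2 and Gpx1 lower with dexamethasone. Prdx2 fell by 1.504 (SE 0.18, adjusted p 0.0112) without the dexamethasone day 1 plate and by 1.51 (SE 0.17, adjusted p 0.0115) without the control day 1 plate. Gpx1 fell by 0.78 (SE 0.15, adjusted p 0.0366) and by 0.78 (SE 0.14, adjusted p 0.0327). The same 2 fits called 5.32% and 5.35% of all genes as lower. This choice was made after the data were seen, and leaving out any 1 of the other 4 plates gave no call of a member. Whether the dexamethasone difference changed with the day could not be tested with 1 plate per day and treatment.

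Over time in culture, Prdx2, Gpx1 and Prdx3 were higher on day 3 than on day 1 in both arms, and Txnrd1 and Sod2 were lower in both. The day 3 level of Prdx2 was 2.11 times that of day 1 in dexamethasone cells and 5.23 times in control cells. For Gpx1 the ratio was 2.09 with dexamethasone and 3.88 in control, and for Prdx3 it was 1.44 and 2.30. Txnrd1 stood on day 3 at 0.559 of its day 1 level in dexamethasone cells and at 0.461 in control cells. Sod2 stood at 0.627 with dexamethasone and at 0.593 in control. The ratio was also above 1 in both arms for Cat (1.19 with dexamethasone and 2.32 in control), Gpx4 (1.15 and 2.41), Sod1 (1.13 and 1.38) and Txn1 (1.01 and 1.29).

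Over all genes the edgeR test of day 3 against day 1 called 0 of 18158 (0% called). It had 2820 genes (15.5%) at an unadjusted p under 0.05, with 6 of the 10 members among them. On the 4326 genes of at least 50 CPM it called 545 genes, which is 12.6%, and 5 members. Prdx2 rose by 1.70 (SE 0.38, adjusted p 0.0376), Gpx1 by 1.53 (SE 0.26, adjusted p 0.0193) and Prdx3 by 0.90 (SE 0.21, adjusted p 0.0405) in log2. Higher calls made up 7.44% of the genes. Sod2 fell by 0.67 (SE 0.15, adjusted p 0.0357) and Txnrd1 fell by 0.93 (SE 0.17, adjusted p 0.0232), where lower calls made up 5.15%. DESeq2 called 11.5% of 18158 genes and 4 of the same members, and it gave Prdx2 an adjusted p of 0.455. The median log2 difference was 0.51 over the members and -0.03 over all genes in the edgeR test of all 18158.

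These calls rested on few plates. On the genes of at least 50 CPM, edgeR called 7 members without the dexamethasone day 1 plate (14.1% of all genes called), 4 without the control day 2 plate (7.5%) and 1 (Gpx1) without the dexamethasone day 2 plate (3.75%). It called no member without the control day 1 plate (1.69%), the dexamethasone day 3 plate (5.52%) or the control day 3 plate (0.416%). The directions of the 5 members stayed the same without each plate in turn. Over these fits, on all genes or on those of at least 50 CPM, the difference ran from 0.97 to 2.51 for Prdx2, from 1.03 to 2.00 for Gpx1 and from 0.52 to 1.22 for Prdx3. Without the cells that carry neutrophil or monocyte markers 3 of the 5 were called (Prdx2, Gpx1 and Txnrd1) at 7.14% of all genes, and Prdx3 and Sod2 had adjusted p of 0.0562 and 0.0595.

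Day 2 against day 1 gave no call for any member in edgeR on all genes (0% called), in edgeR on the genes of at least 50 CPM (5.39% called) or in DESeq2 (8.42% called). Sod2 and Txnrd1 were the 2 members at an unadjusted p under 0.05 in edgeR on all genes. The arms differed in direction for Prdx2, which was lower on day 2 than on day 1 in dexamethasone cells (log2 -0.62) and higher in control cells (1.11). Gpx1 had the same pattern, at -0.41 with dexamethasone and 0.59 in control.

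Levels of different genes can be set beside each other only per length of transcript. Counts per kilobase of annotated exon were rescaled on each plate to the same total over all genes. The values are thus not CPM per kilobase. Averaged over the 6 plates, Gpx1 came first at 2271 ± 1388 (SD, n = 6 plates). Prdx3 followed at 1503 ± 403, then Prdx2 at 1419 ± 1137. The means of Prdx3 and Prdx2 did not differ beyond their spread, but their order changed between plates. With this length Prdx3 was higher on dexamethasone days 1, 2 and 3 (1281, 1214 and 1664 against 731, 473 and 1387). It was also higher on control day 1 (1105 against 791) and level on control day 2 (1550 against 1549). On control day 3 Prdx2 was higher (3583 against 2205). Cat at 642 ± 161, Txn1 at 592 ± 101, Sod1 at 552 ± 79.1 and Prdx1 at 419 ± 86.01 followed with overlapping ranges. Gpx4 at 221 ± 72.5 stood apart from Sod2 at 93.4 ± 26.5 and Txnrd1 at 89.4 ± 32.5, which did not differ. These SDs hold the differences between days and arms as well as plate effects.

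The order depends on which length is used, since the annotation lists long minor forms for some genes. With the length of the principal transcript, levels were taken as TMM-scaled CPM per kilobase. Their values are on another scale than those above, and only the orders can be compared. Sod1 came first at 1099 ± 177 CPM per kilobase, as its principal transcript has 641 bases and its joined exons 3970. Gpx1 at 1006 ± 671 and Prdx2 at 956 ± 814 came next and did not differ from Sod1 beyond their spread. Sod1 was first on 3 of the 6 plates. Prdx3 followed at 489 ± 159. Txnrd1 at 60.2 ± 18.7 and Sod2 at 50.6 ± 11.5 stayed last. On this scale Prdx2 ranked first of the 10 on control days 2 and 3, and in place 4 on dexamethasone day 2. Prdx2 was then above Prdx3 on dexamethasone days 1 and 3, at 456 and 963 against 393 and 568. It was also above Prdx3 on control days 1, 2 and 3 (479, 1037 and 2504 against 329, 510 and 758). Only on dexamethasone day 2 was it below, at 297 against 375. The order of Prdx2 and Prdx3 thus depends on the length used.

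The makeup of the peroxiredoxin transcripts differed between plates. Per kilobase of joined exons, Prdx2 made up 28.2%, 22.6% and 40.0% of the 3 peroxiredoxins in dexamethasone cells on days 1, 2 and 3. In control cells it made up 34.5%, 45.4% and 57.8%. The Prdx2 share was lower with dexamethasone on each day, by -6.30, -22.8 and -17.8 percentage points. The mean difference was -15.6 percentage points with an SD of 8.46 (n = 3 days), and the exact two-sided sign-flip permutation test gave p = 0.25, the smallest value 3 days allow. Prdx3 held 49.5%, 58% and 47.99% with dexamethasone against 48.3%, 45.4% and 35.6% in control. Prdx1 held 22.3%, 19.4% and 11.98% against 17.2%, 9.17% and 6.60%, and was lower on each later day in both arms.

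**Figure D3:**
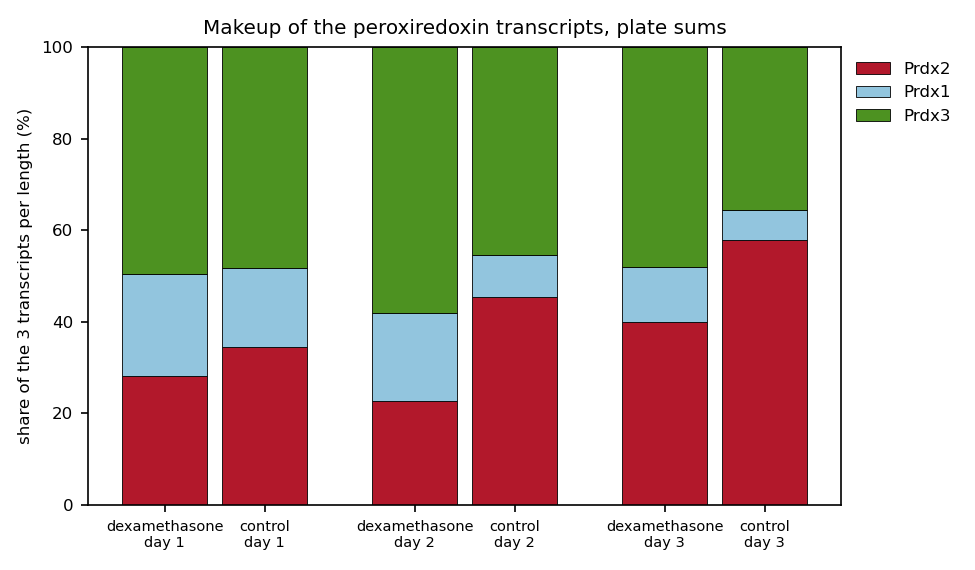
Share of Prdx2 (red), Prdx1 (light blue) and Prdx3 (green) among the counts per kilobase of joined exons of the 3 peroxiredoxins (y axis, percent) on each of the 6 plates (x axis). The Prdx2 share reaches 57.8% on control day 3, against 40.0% on dexamethasone day 3.

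In single cells the order of the plates was the same. The median Prdx2 share of a cell was 26.8%, 21.2% and 39.01% with dexamethasone on days 1, 2 and 3, against 33.4%, 44.3% and 54.1% in control. Cells in which Prdx2 exceeded 50% of the 3 transcripts numbered 0 of 94, 1 of 92 and 12 of 94 with dexamethasone, against 4 of 94, 30 of 96 and 54 of 93 in control. These single-cell shares use the joined exons, and cells past 50% were not counted with the principal transcript length. The 0 of 94 cells on dexamethasone day 1 allow a share of such cells of up to 3.19%, by counting error alone.

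A plate sum cannot tell more cells of a late stage from more transcript per cell, so each cell was given a late red cell score. This was the mean log2(CPM + 1) of 24 late red cell genes, among them globin, haem synthesis and membrane genes, and none of them a member. Median scores were 3.65, 4.86 and 6.16 in dexamethasone cells on days 1, 2 and 3, against 4.46, 8.10 and 8.54 in control cells. Relations within a plate are given as Spearman's rank correlation over its 92 to 96 cells, as a description, since the cells share plate, depth and library.

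Prdx2 followed the score within every plate. The correlation was 0.61, 0.51 and 0.82 in dexamethasone cells of days 1, 2 and 3, against 0.81, 0.87 and 0.94 in control cells. Without the cells carrying neutrophil or monocyte markers it still ran from 0.49 to 0.94. With the total counts of a cell, Prdx2 had a mean correlation of -0.10 over the plates, from -0.45 to 0.35. Prdx3 was positive on all 6 plates, from 0.31 to 0.68, and Cat from 0.22 to 0.53, although Cat was at -0.03 on control day 1 without those cells. Gpx1 had -0.02, 0.29 and 0.37 in dexamethasone cells on days 1, 2 and 3, against 0.28, 0.85 and 0.79 in control cells. Gpx4 had -0.11, -0.02 and 0.16 with dexamethasone, against 0.34, 0.23 and 0.50 in control.

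Sod1, Sod2, Txn1 and Txnrd1 changed sign between early and late plates. Sod2 had a correlation of 0.21, 0.06 and -0.43 in dexamethasone cells on days 1, 2 and 3, against 0.57, -0.59 and -0.51 in control cells. Txnrd1 had 0.31, 0.06 and -0.33 with dexamethasone, against 0.30, -0.34 and -0.42 in control. All 4 were positive on both day 1 plates and on dexamethasone day 2, and negative on the other 3 plates. The day 1 values were smaller without the cells carrying neutrophil or monocyte markers, at 0.18 for Sod2 and 0.04 for Txnrd1 on control day 1, and Sod1 on dexamethasone day 2 became -0.05. Prdx1 was negative on 5 plates and averaged -0.28. The 10 enzymes thus fell into those whose transcripts were higher in cells further along the red cell programme (Prdx2, Prdx3, Cat and, on most plates, Gpx1) and those lower in such cells on control day 2 and on both day 3 plates (Prdx1, Sod1, Sod2, Txn1 and Txnrd1), with Gpx4 in neither set.

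**Figure D4:**
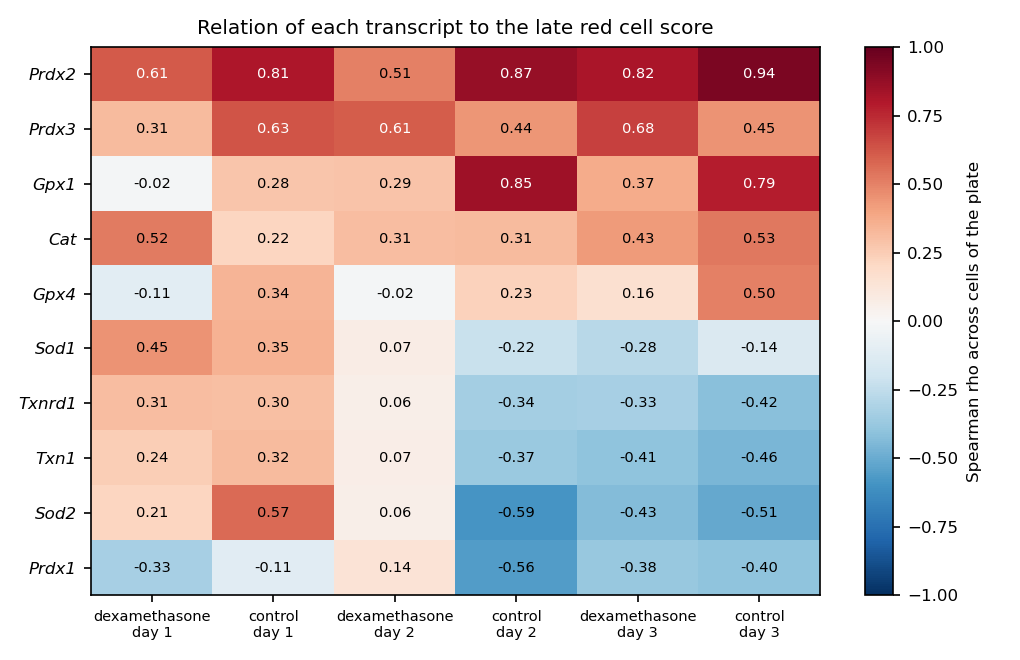
Spearman's rank correlation between each transcript and the late red cell score over the cells of a plate, with members in rows and plates in columns (dexamethasone left of control within a day); red is positive and blue negative. Prdx2 reaches 0.94 on control day 3, where Prdx1, Sod2, Txn1 and Txnrd1 lie between -0.40 and -0.51.

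Prdx2 was also compared within ranges of the score. Kept cells were split by score at 4.592 and 6.571 into 3 ranges of equal cell number. In the lowest range on day 1, Prdx2 was at 638 CPM in 80 dexamethasone cells and at 502 CPM in 51 control cells, with median scores of 3.53 with dexamethasone and 2.501 in control. In the middle range on day 1 it was at 1050.0 CPM in 14 dexamethasone cells (median score 4.84) and 952 CPM in 41 control cells (5.23). In the middle range on day 2 it was at 506 CPM in 51 dexamethasone cells and 662 CPM in 27 control cells, with median scores of 5.18 with dexamethasone and 5.52 in control. In the highest range on day 3 it was at 2097 CPM in 40 dexamethasone cells and at 4258 CPM in 78 control cells. The median scores there were 7.64 with dexamethasone and 8.92 in control. Scores thus differed between the arms inside each of these ranges. These are single plates, with no test.

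**Figure D5:**
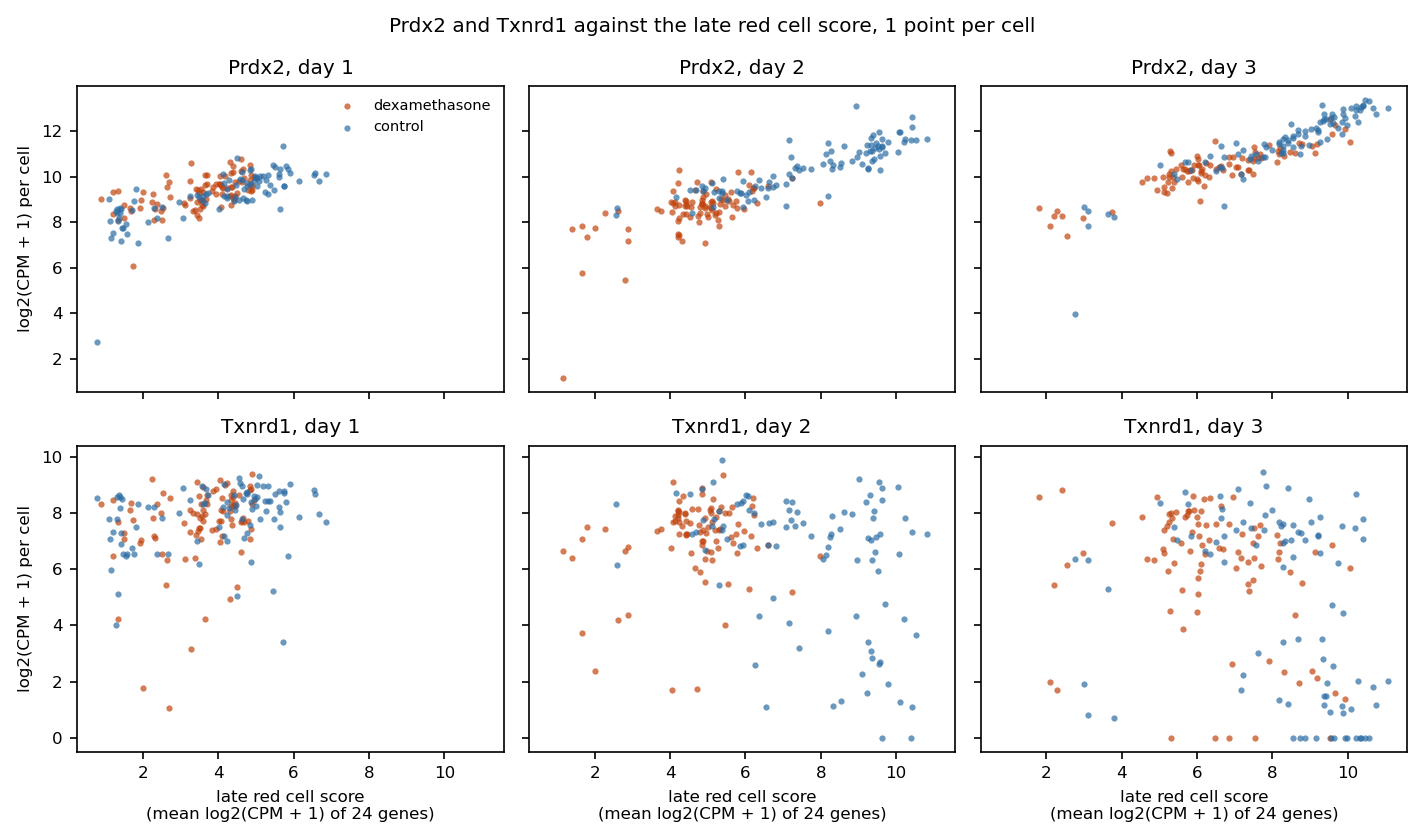
Prdx2 (top) and Txnrd1 (bottom) in single cells as log2(CPM + 1) (y axis) against the late red cell score (x axis), by day, with orange for dexamethasone and blue for control cells. Prdx2 climbs with the score, and Txnrd1 is at or near 0 in a group of high-scoring cells, mostly on control day 3, where 86.02% of cells had a count.

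The spread from cell to cell differed between the members. Prdx1, Prdx2, Prdx3, Gpx1, Gpx4 and Sod1 had a count in every kept cell of every plate. Txnrd1 had a count in 94.7% of dexamethasone cells on day 3 (exact Clopper-Pearson interval at 95%, 88.02% to 98.3%), against 86.02% of control cells (77.3% to 92.3%). At 600000 counts per cell these shares were 92.9% and 79.8%. The intervals overlap and cover counting error only. The lower quartile of Txnrd1 on day 3 was 43.96 CPM in dexamethasone cells and 1.78 CPM in control cells, while the medians were 97.3 and 85.6 CPM. The upper quartile was 194 CPM in dexamethasone cells and 183 CPM in control cells, so the upper quartiles were alike and the lower quartiles apart. The 90th percentile was lower with dexamethasone, at 269.6 CPM against 324.9 CPM in control cells.

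Sod2 had a similar low tail on day 3. Its 10th percentile was 83.4 CPM in dexamethasone cells and 2.86 CPM in control cells, with medians of 211 and 175 CPM. Cat had the opposite tail. Its 90th percentile on day 3 was 899.7 CPM with dexamethasone and 2737 CPM in control, where the medians were 484 and 542 CPM, so the medians of the arms lay closer together than the 90th percentiles. Gpx1 likewise reached a 90th percentile of 2289 CPM with dexamethasone and 5817 CPM in control on day 3, against medians of 1350 and 1795 CPM.

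The genes whose levels ran most like each member across cells were taken from 4325 others, by the mean of Spearman's rank correlation within the 6 plates. Near to Prdx2 were Blvrb (0.755) and Fth1 (0.716), which encode biliverdin reductase B and ferritin heavy chain. Prdx3 ran most like Car2 (0.529), which encodes carbonic anhydrase 2, and Cat most like Fech (0.468), which encodes the enzyme that puts iron into haem. Gpx1 was nearest to the alpha globin gene Hba-a1 (mean 0.511, from -0.05 to 0.89 over the plates), and Gpx4 to Tmem14c (0.329), which encodes a mitochondrial membrane protein needed for haem synthesis.

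The remaining members had other neighbours. For Sod1 and Txn1 all 3 nearest genes encoded ribosomal proteins, led by Rplp1 (0.456) and Rps23 (0.530). Sod2 was nearest to the chaperone gene Hsp90aa1 (0.508) and to Nhp2 (0.506) and Nop10 (0.502), parts of the box H/ACA ribonucleoprotein. Txnrd1 was nearest to the RNA methyltransferase Nsun2 (0.484), the spermidine synthase Srm (0.475) and the helicase Ddx21 (0.426). Prdx1 was nearest to Gm13493 (0.450) and the cyclophilin gene Ppia (0.427). Among the members themselves, the pair that ran most alike was Prdx2 and Prdx3 (mean correlation 0.528, positive on 6 of 6 plates), and the least alike was Gpx1 and Txnrd1 (mean -0.248, positive on 0 of 6).

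The wider systems that feed these enzymes were described by 98 further genes in 5 lists. Over the peroxiredoxin and thioredoxin list, 20 of 20 genes were tested for dexamethasone, with 13 fitted differences above 0 and 7 below, a median of 0.15 in log2, and 0 calls. Txnip, which binds and inhibits thioredoxin, had 93.3, 143 and 63.6 CPM in dexamethasone cells on days 1, 2 and 3, against 57.5, 44.6 and 36.3 CPM in control cells. Its arms did not overlap, which held in this direction for 7.29% of all genes tested. Txnip was named for its direction on all 3 days, so this is no separate finding. Glrx3, a cytosolic glutaredoxin, had 203, 188 and 215 CPM with dexamethasone, against 147, 141 and 149 CPM in control. Txnrd3, the thioredoxin glutathione reductase, had 34.6, 22.5 and 18.1 CPM with dexamethasone against 49.97, 33.01 and 30.5 CPM in control.

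In the glutathione list 20 of 23 genes were tested, 5 with differences above 0 and 15 below, with a median of -0.52 against 0.07 over all genes and 0 calls. Of the 7 that averaged 50 CPM or more, 4 were above 0 (Gsto1 0.80, Gstp1 0.50, Gsr 0.19 and Gstm5 0.06) and 3 below (Gss -0.91, Gclm -0.43 and Mgst3 -0.39), with a median of 0.056 and 0 calls. Gss, the glutathione synthetase, had 74.4, 114 and 161 CPM in dexamethasone cells, against 118, 254 and 346 CPM in control cells, lower with dexamethasone on each day. Slc7a11, the cystine carrier that supplies cysteine for glutathione, had 1.77, 17.04 and 5.00 CPM with dexamethasone against 3.37, 41.2 and 46.2 CPM in control. Gstt1, a glutathione transferase, was at 0, 1.47 and 6.10 CPM with dexamethasone against 1.38, 14.2 and 88.1 CPM in control. A plate without a count allows up to 3 counts, equal to 0.0259 CPM on dexamethasone day 1.

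The other 3 lists had 0 calls for dexamethasone as well. NADPH supply had 10 of 17 tested genes above 0 and a median of 0.05. Mthfd2, a mitochondrial folate enzyme, was lower with dexamethasone on each day, at 246, 239 and 226 CPM against 356, 668 and 728 CPM in control. The regulators and targets of NRF2, BACH1 and FOXO3 had 7 of 22 above 0 and a median of -0.19. Mafg, a small Maf partner of NRF2 and BACH1, had 56.7, 84.4 and 65.2 CPM with dexamethasone against 100.2, 163 and 228 CPM in control. Nqo1, a classical NRF2 target, had 77.5, 33.3 and 57.9 CPM against 106, 85.9 and 132 CPM. Selenoprotein synthesis, which the recoded TGA of Gpx1, Gpx4 and Txnrd1 requires, had 9 of 16 above 0 and a median of 0.07. Sepsecs, the enzyme that makes selenocysteine on its tRNA, had 32.2, 27.5 and 30.7 CPM with dexamethasone and 37.9, 38.5 and 53.3 CPM in control. Higher on each day were Trnau1ap, a partner of the selenocysteine tRNA, at 81.4, 57.2 and 75.9 CPM with dexamethasone against 62.2, 47.6 and 59.7 CPM in control, and the selenoprotein gene Selenos, at 79.4, 91.1 and 72.4 CPM against 63.6, 44.4 and 63.8 CPM. These named genes were chosen for a difference in 1 direction on all 3 days, so that direction is no finding.

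For day 3 against day 1, edgeR on the genes of at least 50 CPM called 9 of the 58 tested genes of these lists, or 15.5%, beside 12.6% of all genes. Sesn2, a stress-induced sestrin, rose by 2.83 (SE 0.31, adjusted p 0.00539) in log2 and was the only call among the 13 tested genes of the peroxiredoxin and thioredoxin list. Of 7 tested glutathione genes 3 rose, namely Mgst3, Gss and Gstm5, by 3.16, 1.37 and 0.90. Of 13 genes of NADPH supply, Taldo1 (transaldolase) rose by 1.19 and Idh2 (mitochondrial isocitrate dehydrogenase) fell by 0.82. Blvrb, Foxo3 and Esd rose among 16 tested genes of the regulator list, by 1.84, 1.19 and 0.83. No gene of the 9 tested for selenoprotein synthesis was called. By day 2, Sesn2, Gss and Foxo3 were already called higher than on day 1 in the same test. These are 3 of the 58, or 5.17%, beside 5.39% of all genes.

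Reads may be exchanged between a member and its near copies. Coding runs of at least 50 identical bases were shared with annotated copies by 5 members, and the counts on these copies were 5.93% of those on Gpx4 (Gpx4-ps2), 1.48% of those on Prdx1 and under 1% for Prdx2, Sod1 and Txn1. Exons of Prdx2 overlap Junb by 173 bases and Rnaseh2a by 177 bases on the opposite strand, out of 3050 exon bases, and without a stated strand setting those reads cannot be told apart. Gene positions on GRCm38 were chr8:84969587-84974834 on the plus strand for Prdx2, chr9:108338903-108340343 on the plus strand for Gpx1 and chr10:82833951-82897712 on the plus strand for Txnrd1.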

How the data were processed

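The authors' deposited values are whole-number read counts for each gene in each well, from polyadenylated RNA of single cells. STAR 2.4, featureCounts and GRCm38 were used, per the submitters' processing notes; the sources used here do not give the strand setting or the handling of multi-mapping reads. A count is a read without molecular identifier and intervals cover counting error only. Of 576 value columns 575 matched a labelled well and 1 was not used. The header has 1 empty cell more than the rows; it was left out, and Mt2, Fkbp5, Per1 and Tsc22d3 (glucocorticoid-induced genes) then had all dexamethasone plates above all control plates. With names moved by 1 column they did not.

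Wells with at least 50000 counts, 1500 genes and at most 20% mitochondrial counts were kept (563 cells, 12 wells removed). No doublet caller was run on these sorted wells. Counts were summed per plate and tested with edgeR 4.0.16 (quasi-likelihood, day and dexamethasone as terms, TMM, filterByExpr, Benjamini-Hochberg over all genes, threshold 0.05); SE is the log2 difference divided by the square root of F. The spread behind each p-value is that between 6 plates. It may be technical, and it includes any change of the difference with the day. Daily ratios used a prior count of 2 and have no test. DESeq2 1.42.0, other scalings and filters, thinning to 600000 counts per cell and leaving out plates or cells were alternatives. The code was tested on simulated counts. Members, lists and the filter at 50 CPM were chosen with earlier results of these data known. All members were named; list genes were named when called, and otherwise the up to 4 genes per list with a mean of at least 10 CPM and the largest daily ratio in 1 direction, of which the text gives a part; nearest genes are the 3 with the highest mean rank correlation, of which 1 is not reported here. Ahsp, 1 of the late red cell genes, was not matched. No protein sequence was used.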

Additional observations from a re-analysis of the deposited data

Results flagged for a closer look

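With 1 plate per day and treatment, whether a dexamethasone difference changed between days, or a change over days differed between the arms, was not tested, and the following are values only. They are the cases in which 2 log2 ratios had opposite signs and each was at least 0.25 in size. The dexamethasone minus control ratio of Prdx3 was lower on day 2 than on day 1 by -0.70 and on day 3 than on day 1 by -0.67. That of Cat was lower on day 3 than on day 1 by -0.97. That of Gpx4 was lower on day 2 than on day 1 by -1.22 and on day 3 than on day 1 by -1.07. Changes from day 1 to day 2 differed between dexamethasone and control cells by -1.73 for Prdx2, -1 for Gpx1 and -1.23 for Gpx4. The change from day 1 to day 3 differed between dexamethasone and control cells by -0.58 for Prdx1. In each case the later or dexamethasone value was the lower one.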

How the results depend on the processing

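No paired analysis was possible by well number because the shared numbers name wells of different cells and the tests use plate sums. Without the day term (no replicate block) the dexamethasone difference of Prdx2 was -1.23 with an edgeR adjusted p of 0.812, and no member was called. The count of members called for day 3 against day 1 was 0 in edgeR on all genes, 5 on genes of at least 50 CPM, 4 in DESeq2 and 3 on genes of at least 50 CPM without cells carrying neutrophil or monocyte markers. Without 1 plate it ran from 0 to 7, and for dexamethasone from 0 to 2. Signs turned in these cases. For dexamethasone, Sod2 was -0.078 without the marker-bearing cells and Cat 0.080 without them at 50 CPM. Without 1 plate, Cat ran from -0.37 to 0.17, Gpx4 from -0.48 to 0.18, Sod2 from -0.0025 to 0.16 and Txnrd1 from -0.20 to 0.043. For day 3 against day 1, Prdx1 was 0.016 at 50 CPM and ran from -0.26 to 0.22 without 1 plate, and Txn1 from -0.029 to 0.45. For day 2 against day 1, Sod1 was -0.018 after thinning and -0.088 without the marker-bearing cells. Without 1 plate it ran from -0.26 to 0.33, Prdx2 from -0.51 to 1.04, Prdx3 from -0.066 to 0.65, Gpx1 from -0.39 to 0.59, Gpx4 from -0.80 to 0.38 and Txn1 from -0.095 to 0.34. The cause was not tested. The Prdx2 share differed by -15.6 to -17.6 percentage points under the 4 alternatives. The shares themselves were higher on every plate with the principal transcript length. The fits at 50 CPM that leave out a plate or marker-bearing cells, the principal transcript length and the rank correlations without marker-bearing cells were chosen after seeing the data.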
